A study of Mus musculus with 2 samples.

Results

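Low-count barcodes that carried transcripts of round spermatids were examined in single-cell libraries of dissociated adult mouse testis. A barcode entered the set, and is called a member here, when it had under 3000 counts in total, 200 or more detected genes, under 2% of its counts from mitochondrially encoded genes, under 10% from the protamine and transition protein genes Prm1, Prm2, Tnp1 and Tnp2, and 2 or more summed counts of Saxo1, Dyrk4, Hsfy2, Spata31, Tbc1d23 and Fam209. The rule gave 614 members among 33211 barcodes with 200 or more genes, 318 of 16376 in the WT library and 296 of 16835 in the Nsun7 knockout library. Members were thus chosen by measured values (total counts, detected genes, mitochondrial and protamine shares, and the 6 genes), so these are given below as a description only. Of the 6 genes, Dyrk4 encodes a protein kinase of the DYRK family, Saxo1 a microtubule-stabilising protein of axonemes, Hsfy2 a heat shock factor-like protein and Tbc1d23 a TBC domain protein.

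Both libraries came from testes of adult mice, 1 library from WT mice and 1 from Nsun7 knockout mice; the labels name no strain, exact age or number of animals, and do not say which part of Nsun7 was deleted. Tissue was minced and digested with enzymes, strained, placed in a lysis buffer, washed, and processed on the DNBelab C series droplet system, in both groups alike. With 1 library per genotype no difference has a replicate check and no test was made. Intervals are at the 95% level and reflect only the error of counting. The WT library held 220247156 counts in 16376 barcodes and the knockout library 210531446 counts in 16837 barcodes, and the smallest total was 1001 counts in both. The libraries shared 2168 barcode names, but the names are running numbers, so shared cells could not be looked for.

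Round spermatids are the haploid cells that follow the second meiotic division. They build the acrosome from Golgi vesicles, begin the flagellum, and transcribe and store much of the mRNA that is translated later, when transcription stops and protamines replace histones on the DNA. Neighbouring spermatids stay joined by cytoplasmic bridges, through which mRNA can pass. NSUN7 belongs to the NOL1/NOP2/SUN family of proteins related to RNA 5-methylcytosine (m5C) methyltransferases, and the series title links it to assembly of the sperm flagellum and calls it catalytically inactive.

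Nsun7 (chromosome 5, 66259897 to 66298026, plus strand, GRCm38, protein coding) was lower in the knockout members. It had 111 counts in WT members and 16 in knockout members, or 179.8 and 29.3 CPM (counts per 1000000 counts of the group), a 6.14-fold lower level (interval 3.62 to 11.1). The levels in deeper round spermatid barcodes were 209 and 38.6 CPM, and those of the whole libraries 170.0 and 39.7 CPM. After each barcode had been thinned to 1000 counts, 15.1% (11.3% to 19.5%) of WT members and 2.70% (1.17% to 5.26%) of knockout members kept an Nsun7 count. Leydig-rich barcodes of 3000 or more counts, in which 2% or more of the counts came from Leydig cell genes, gave 1.68% and 0 of 292, which allows a share of up to 1.26%. Their median totals of 12441 and 14860.5 counts were above the members' 1931 and 1775 before thinning. The knockout members still held Nsun7 reads, and whether those come from the deleted part is not given in the sources used here.

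Members made up 1.94% (1.74% to 2.17%) of WT barcodes and 1.76% (1.57% to 1.97%) of knockout barcodes, and the intervals overlap. Among barcodes within the other limits, 318 of 1413 (22.5%) and 296 of 1326 (22.3%) reached 2 six-gene counts. Most of the rest had none: 878 and 863 barcodes had 0 six-gene counts, and 217 and 167 had 1. Members had median totals of 1931 and 1775 counts (quartiles 1431 to 2394.5 and 1342.25 to 2283) and a median of 1279 and 1127.5 genes. A reference set was formed under the same limits, but with 3000 or more counts and at least 2 six-gene counts per 3000: 1231 WT and 614 knockout barcodes, with median totals of 14513 and 11291. Members were 20.5% (18.5% to 22.6%) of members plus reference in WT and 32.5% (29.5% to 35.7%) in the knockout library. This ratio was chosen after the values had been seen.

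**Figure D1:**
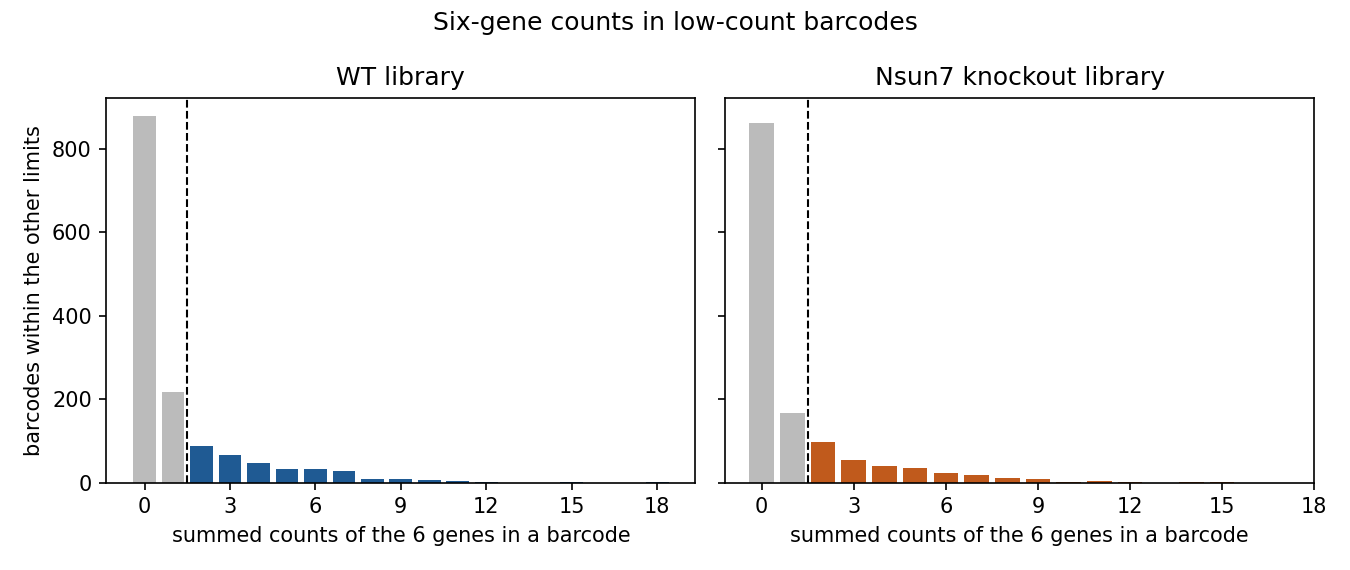
Barcodes within the other limits of the rule (y axis) by their summed counts of the 6 genes (x axis) in the WT and knockout libraries; colour marks members and the dashed line the minimum of 2 counts. The bar at 0 holds 878 WT and 863 knockout barcodes, and the highest member had 18 counts in WT and 15 in the knockout library.

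The 6 genes were spread over members and no single gene carried the set. Spata31 was detected in 217 of 318 WT members and 193 of 296 knockout members, and Fam209 in 213 and 177. Hsfy2 was detected in 142 and 115, Tbc1d23 in 136 and 117, and Saxo1 in 100 and 91. Dyrk4 was the rarest, in 41 and 59 members. Only 41 WT and 50 knockout members owed their 2 or more counts to a single gene, 115 and 119 had counts of 2 of the genes, and 2 members in each library had all 6. The threshold sat within a gradient rather than at a gap. Summed levels of 15 other round spermatid markers were 6105 and 6417 CPM in members with 2 six-gene counts, against 4342 and 4693 CPM just outside, in barcodes with 1 count. At the limit on total counts, members with 2500 or more counts had 7890 and 8000 CPM, and barcodes in the next bin of equal width above 3000 counts, with the same six-gene minimum, 7778 and 8927 CPM. Just inside the mitochondrial limit (48 and 40 members) the values were 6620 and 6440 CPM, and just outside (21 and 14 barcodes) 5315 and 6169 CPM. Just inside the limit on Prm and Tnp counts (10 and 35 members) they were 6636 and 6845 CPM, and just outside (4 and 10 barcodes) 3087 and 6399 CPM.

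Genes that the rule did not use also showed round spermatid levels in members. Members, the reference and the low-count barcodes with 0 six-gene counts were all set by counts of the genes of the rule. Other genes that vary together with those genes would follow the same order. The levels below are therefore a description and not an independent check of cell type. The 15 markers were all detected and summed to 7540.3 CPM (7325 to 7760.1) in WT members and 7866 CPM (7633 to 8105) in knockout members. Reference barcodes were at 8268 and 8304 CPM, and low-count barcodes with 0 six-gene counts at 3204 and 2874 CPM. Acrv1, an acrosomal matrix protein gene, was at 663 and 721 CPM in members, 757 and 775 CPM in the reference, and 108 and 72.1 CPM in barcodes with 0 six-gene counts. Spaca1, an acrosomal membrane protein gene, was at 917 and 827 CPM in members, 963 and 910.0 CPM in the reference, and 119 and 81.6 CPM in barcodes with 0 six-gene counts. The kinase genes Tssk1 and Tssk2 were at 765 and 786 CPM in WT members and at 798 and 875 CPM in knockout members. None of the 15 markers was 1.5-fold or more from the reference in either library, against 1.80% of all genes tested higher and 2.50% lower in WT, and 5.31% and 5.25% in the knockout library. The list median was -0.19 in WT and -0.10 in the knockout library (log2), beside -0.04 and -0.09 over all genes tested.

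Detection per barcode gave the same order at equal depth. After thinning to 1000 counts, Acrv1 was detected in 44.7% of WT members and 45.9% of knockout members, in 55.2% and 58.1% of the reference, in 8.88% and 5.21% of barcodes with 0 six-gene counts, and in 1.26% and 0.685% of the deep Leydig-rich barcodes. Before thinning the members' shares were 66.4% and 64.5%. Spaca1 was detected in 55.0% and 49.7% of members, 60.7% and 58.0% of the reference, and 2.10% and 0.342% of Leydig-rich barcodes. Low-count Leydig-rich barcodes had 2 or more six-gene counts in 0 of 25 WT barcodes, which allows a share of up to 13.7%, and in 0 of 18 knockout barcodes, which allows up to 18.5%, both as exact binomial limits. Thinned members held a median of 772 and 753.5 genes, against 800 and 789 in the reference. Across 3975 and 3869 genes, the log2 CPM profile of members correlated with that of the reference at r = 0.97 and 0.95, and with that of 0-count barcodes at 0.60 and 0.61. These are correlations across genes, which are not independent, and the groups share a library. Members, the reference and the 0-count barcodes were also set by counts of the genes of the rule. Their order in detection and in r is therefore not an independent check.

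Promoter sequences of some of these genes are shown because CREM and RFX factors are known regulators of spermatid transcription, although no binding was measured here. RefSeq windows on GRCm38.p6, from 250 bases before to 50 after a gene's start, matched all 6 rule genes (7 windows) and 14 of the 15 markers (17 windows). Both strands were searched for the full CRE (TGACGTCA), its core (TGACG, which lies within the full site), an X-box written as GTNNCC and GNAAC with 3 or with 2 bases of any kind between them, and the X-box core GTTGCC. Among the 7 windows of the rule genes, none held the full CRE, 1 held the CRE core, and none held any of the X-box patterns. Among the 17 marker windows, 1 held the full CRE, 4 the CRE core, 1 the X-box core, and none the longer X-box patterns. Over all 32851 windows the shares were 1.79%, 20.8%, 2.17%, 1.56% and 12.5% in the order given. The 3 stretches below lie upstream of the start, run 5′ to 3′ on the gene's strand, and show in capitals the full site of Izumo1, the sperm-egg fusion gene (chr7:45621695-45621742, plus strand), the paired cores of Spaca1 (chr4:34050100-34050154, minus strand) and the core of Tbc1d23 (chr16:57231497-57231541, minus strand).
Izumo1: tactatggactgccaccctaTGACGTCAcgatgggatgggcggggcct
Spaca1: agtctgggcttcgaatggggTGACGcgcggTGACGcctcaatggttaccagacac
Tbc1d23: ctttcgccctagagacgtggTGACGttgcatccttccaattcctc

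Broader spermatid programmes stood near the reference as well, with the same limit that the groups were set by counts of the rule genes. Acrosome genes (34 in the list, 32 at 50 CPM or more) summed to 11925 and 12578 CPM in members and to 12664 and 12814 CPM in the reference. Flagellum genes summed to 26971 and 27008 CPM in members and to 26724 and 26979 CPM in the reference. In WT, 1 of 46 measured flagellum genes was 1.5-fold or more above the reference, the axonemal dynein gene Dnah8 (204 against 130.3 CPM), and 0 were below. In the knockout library 1 was above, the outer dense fibre gene Odf1, and 2 were below. Regulators of spermatid transcription summed to 6631 and 6838 CPM in members and 6624 and 6756 CPM in the reference, but to 3667 and 3746 CPM in barcodes with 0 six-gene counts. A list made for X-linked genes transcribed after meiosis summed to 4076 and 4503 CPM in members and 3717 and 3830.1 CPM in the reference. It was at 1218 and 1637 CPM in 0-count barcodes. The perinuclear theca gene Cypt4 was the most abundant gene of this list after Akap4 (992 and 1043 CPM in members). The chromosome of each listed gene is not given here, so the sum is that of the list and not of the X chromosome. Counts of genes on this list were present in 313 and 290 members, and counts of genes on a list made for Y-linked genes in 102 and 88. Both were present in 102 and 87 members. Since spermatids share transcripts through bridges and a barcode may hold several cells, the pairing does not tell how many cells a barcode holds.

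Markers of later and earlier stages were also detected. Late spermatid markers summed to 10082 CPM (9833 to 10336) in WT members and 14559.9 CPM (14242 to 14883) in knockout members, 1.29-fold (1.25 to 1.32) and 1.54-fold (1.501 to 1.57) the reference. They were far above that in 0-count barcodes, at 30075 and 57643 CPM. Among members, the top 3 barcodes held 8.34% of the WT and 12.4% of the knockout counts of this list. Oaz3, a late ornithine decarboxylase antizyme gene, was at 2233 and 3526 CPM in members, 1585 and 1845 CPM in the reference, and 12123 and 22369 CPM in 0-count barcodes. Odf1 was at 1304 and 2198 CPM in members and 936 and 1313 CPM in the reference. All 8 markers were above the reference in both libraries, and 1 of 8 in WT and 4 of 8 in knockout members were 1.5-fold or more above it, beside 1.80% and 5.31% of all genes tested, the testis serine kinase gene Tssk6 being the highest in both. The Prm and Tnp genes, which the rule limited, had median shares of 1.88% and 3.39% in members and 0.751% and 1.40% in the reference. Late spermatocyte markers were at 1126 and 853 CPM in members and at 1014 and 905 CPM in the reference, 1.11-fold (1.03 to 1.20) and 0.943-fold (0.857 to 1.03). Early spermatocyte markers were 1.44-fold (1.23 to 1.68) the reference in WT members and 0.932-fold (0.738 to 1.16) in knockout members.

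**Figure D2:**
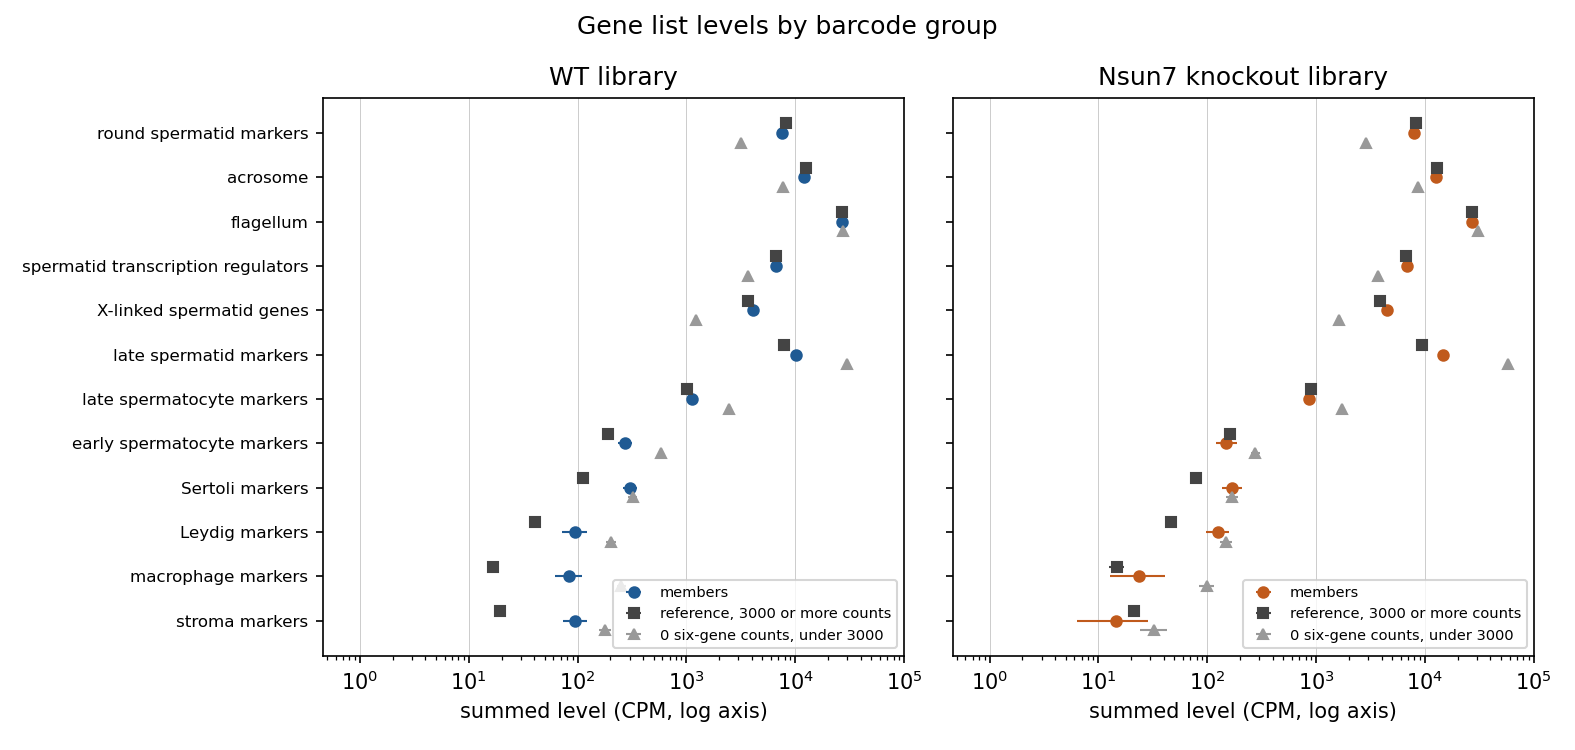
Summed level of 12 gene lists (CPM, log axis, with 95% Poisson intervals) in members (circles), reference barcodes of 3000 or more counts (squares) and low-count barcodes with 0 six-gene counts (triangles), by library. Round spermatid markers lie at 7540.3 and 7866 CPM in members, near the squares, whereas markers of Leydig and Sertoli cells lie above the squares in both libraries.

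Leydig and Sertoli markers were low in members but above the reference in both libraries. Leydig markers summed to 94.0 CPM (71.4 to 121) in WT members and 126 CPM (98.2 to 159.8) in knockout members, against 40.6 and 46.2 CPM in the reference and 596 and 833 CPM over the whole libraries. All were low in single barcodes: 52 of 318 and 54 of 296 members had a Leydig count, and the highest had 2 counts in WT and 4 in the knockout library. Sertoli markers were at 301 and 170.2 CPM in members and 112 and 78.0 CPM in the reference. Macrophage and stroma markers lay in few members. In WT members macrophage markers were at 82.6 CPM (reference 16.6 CPM), with 82.4% of their 51 counts in 3 members, and stroma markers at 95.6 CPM (reference 19.2 CPM), with 78.0% of their 59 counts in 3 members. In knockout members they were at 23.8 and 14.6 CPM, against 14.7 and 21.3 CPM in the reference, and no member had more than 2 counts of either list. Of endothelium, T cell and red cell markers, members held 3, 5 and 2 counts in WT and 2, 8 and 0 in the knockout library. T cell markers were at 8.10 CPM in WT members and 10.01 CPM in the WT reference, and at 14.6 and 9.53 CPM in the knockout library. Doublet calls marked 12 WT members (3.77%) and 1 knockout member (0.338%), beside 3.96% and 4.48% of all barcodes given to the caller. With called doublets left out, 13 genes were 2-fold or more higher and 22 lower in knockout members, beside 15 and 23 with them. With free RNA subtracted, scaled by the Leydig markers, the counts were 19 and 19, and 1 gene in place of 2 stood 2-fold or more above the reference in both libraries. The numbers of genes tested in these settings are not given here.

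Against the reference, 2 genes were 2-fold or more higher in members of both libraries among 3453 genes tested (0.0579%), and 0 were lower (0%). The rule is a fold of 2 with 5 CPM added to both levels, among genes whose mean of the compared levels reached 50 CPM. In single libraries the counts were 8 higher and 2 lower of 3726 in WT (0.215% and 0.0537%) and 18 higher and 12 lower of 3581 in the knockout library (0.503% and 0.335%). No gene was called in opposite directions.

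Gm42418 (chromosome 17, 39846958 to 39848788, plus strand, annotated as a lincRNA) differed most. Its locus is known to overlap ribosomal RNA sequence. It was at 2688 CPM in WT members and 628 CPM in the reference, 4.28-fold higher (4.07 to 4.50), and at 3210 and 696 CPM in the knockout library, 4.61-fold higher (4.38 to 4.86). Barcodes with 0 six-gene counts were higher still, at 4746 and 5615 CPM. The level was lower at greater depth under 1 rule for all totals. In WT it was 3493, 3291 and 2199 CPM in the bins below 3000 counts that start at 1000, 1500 and 2000, then 1522, 872, 623 and 539 CPM in the bins that start at 3000, 6000, 12000 and 24000. In the knockout library it was 3440, 3361 and 3039.9 CPM below 3000 counts, then 1702, 1060.4, 667 and 530.4 CPM. The knockout values thus differed little below 3000 counts and were lower from 3000 on (2842 to 3248 CPM against 1609 to 1798 CPM as intervals of the bins on either side), whereas in WT the level was already lower from 2000. Round spermatid markers ranged only from 7237 to 8421 CPM and from 7514 to 8644 CPM over the same bins. Gm42418 also differed with the number at the end of the deposited barcode names, whose meaning is not given in the sources used here. Members with the suffix N1 (199 and 173) were at 1782 and 2095 CPM, and those with N2 or more (119 and 123) at 4285 and 4657 CPM. In the reference the same suffixes gave 545 and 522 CPM for N1 and 659 and 752 CPM for N2 or more. N1 was the suffix of 62.6% and 58.4% of members and of 51.8% and 42.2% of the reference. A thinned and reselected set was also formed from barcodes of 3000 or more counts within the other limits. Each was thinned to 1000 counts and kept if 2 or more six-gene counts were left. Against this set the difference remained, at a log2 ratio of 1.65 in WT and 1.61 in the knockout library. Members were not thinned for this. At 1000 counts only 68.2% of WT and 67.2% of knockout members kept 2 or more six-gene counts, so the set was selected more strictly than the members.

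**Figure D3:**
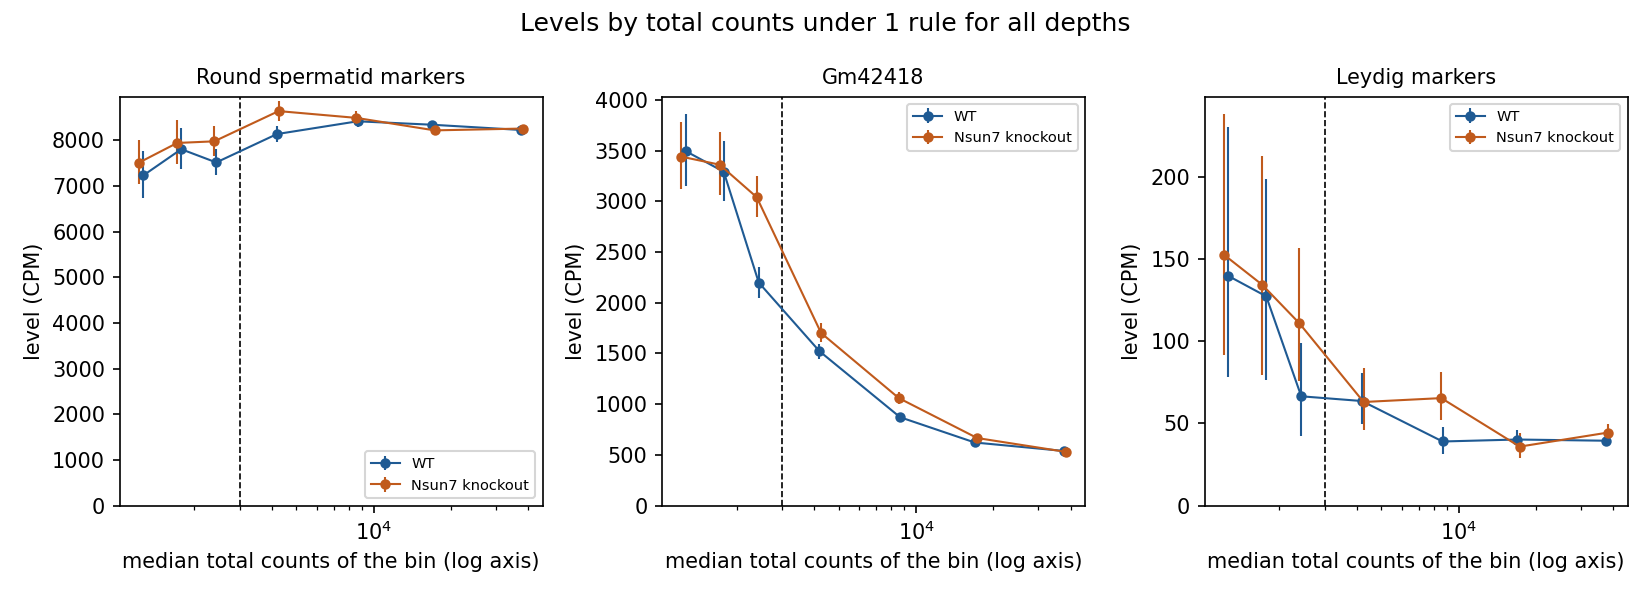
Summed level (CPM, 95% Poisson intervals) of the 15 round spermatid markers, of Gm42418 and of Leydig markers in 7 bins of total counts per barcode, plotted at the bin's median (log axis), for barcodes of both libraries that passed the same limits with at least 2 six-gene counts and at least 2 per 3000; the dashed line marks 3000 counts. Gm42418 falls from 3493 and 3440 CPM to 539 and 530.4 CPM, while the round spermatid markers stay between 7237 and 8644 CPM.

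Jak3 (chromosome 8, 71676296 to 71690575, plus strand) was the other gene. This tyrosine kinase gene lies at the Leydig hormone gene Insl3, so reads of the neighbours may be hard to tell apart. Jak3 was at 206 CPM in WT members and 76.7 CPM in the reference, 2.68-fold higher (2.22 to 3.21), and at 245 and 94.7 CPM in the knockout library, 2.59-fold higher (2.15 to 3.10). It was at 1227 and 1759 CPM over the whole libraries, and the Leydig markers beside it were 2.31-fold and 2.73-fold above the reference. Against the thinned and reselected set, which was selected more strictly than the members, the log2 ratio was 0.97 and 0.76, under the 2-fold line.

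The other genes with the highest ratios in both libraries lay under the 2-fold line in at least 1 library. Tssk6 was 1.88-fold (1.62 to 2.16) and 2.03-fold (1.78 to 2.30) above the reference. Tex44 was at 72.9 and 124 CPM in members against 38.4 and 54.1 CPM. Usp34, a deubiquitinase gene, was 1.75-fold and 1.76-fold above the reference, and the cohesin subunit gene Rad21 1.69-fold and 1.75-fold. Tmem56, Fam71a, Herpud1 (a gene of the endoplasmic reticulum stress response), the zinc transporter gene Slc30a4 and Tmem147os were 1.62-fold to 1.963-fold above it. Among the lowest, the serine protease gene Prss46 was at 94.0 and 109.8 CPM against 194 and 212 CPM, 2.07-fold (1.60 to 2.73) and 1.93-fold (1.49 to 2.53) lower. Zdhhc11, of the palmitoyltransferase family, was 2.02-fold and 1.90-fold lower, and the anchoring protein gene Akap9 1.963-fold and 1.905-fold lower. Trp53inp2, which acts in autophagy, was 2.00-fold (1.40 to 2.97) and 3.33-fold (1.94 to 6.27) lower on 30 and 13 counts. Smco4, Dll3, Pla2g7, Nudcd2, Fer1l5 and Clec4a2 were 1.67-fold to 3.12-fold lower. These ratios depend on which reference is used. With a reference of 2 or more six-gene counts per 1000, 36 genes were called higher and 4 lower, and several named genes changed sign. The number of genes tested with that reference is not given here. Prss46 was then above the reference by 0.46 and 0.78 (log2) and Smco4 by 0.86 and 1.03, and Zdhhc11 and Nudcd2 were above it in both libraries and Fer1l5 in WT. Rad21 was below it at -0.33 and -0.51 and Fam71a at -0.23 and -0.30, and Slc30a4 was below it at -0.025 and -0.063. Against the thinned and reselected set, Rad21 was at 0.14 and 0.22, and Tmem147os (-0.15) and Nudcd2 (0.43) changed sign in the knockout library.

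**Figure D4:**
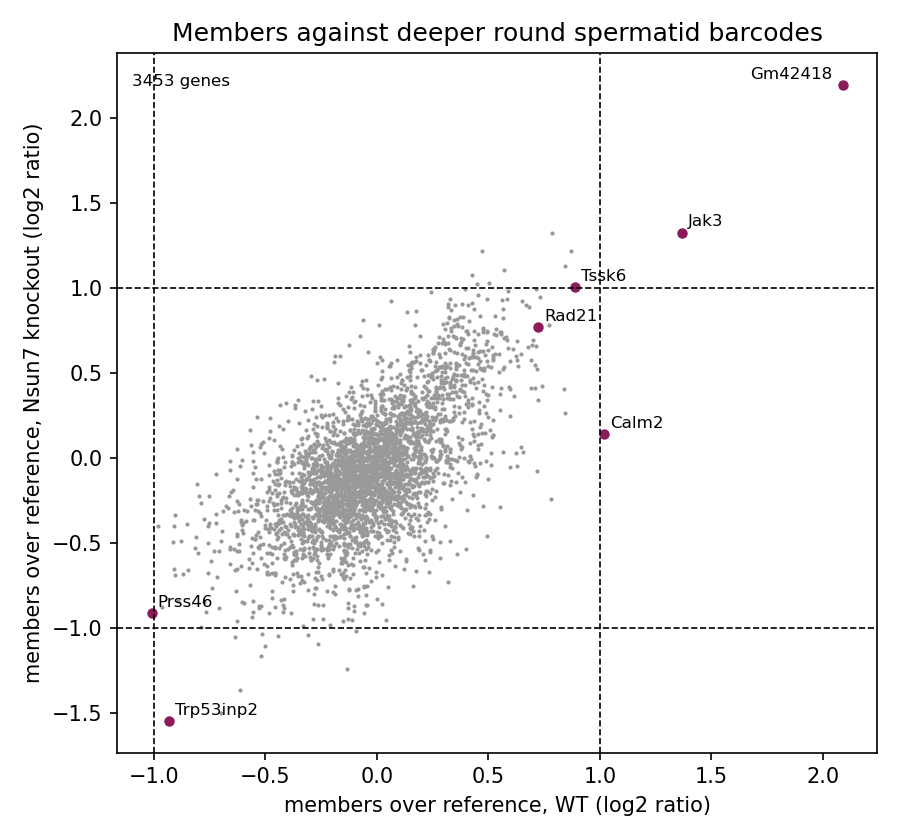
Log2 ratio of members over reference barcodes in WT (x axis) and in the knockout library (y axis), each point 1 of 3453 genes that reached the mean of 50 CPM in both, without the genes that the rule used; dashed lines mark a 2-fold difference. Gm42418 and Jak3 alone lie beyond 2-fold in both libraries, and none lies beyond 2-fold lower in both.

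Between the genotypes, more genes were called in members than in the reference, at unlike depth. Among 3590 genes tested, 15 were 2-fold or more higher in knockout members (0.418%) and 23 lower (0.641%). In the reference the counts were 0 and 1 of 3691 (0% and 0.0271%), the 1 being Nsun7. The reference rests on far more counts (26168158 and 11431734, against 617219 and 546501 in members). When its barcodes were thinned to 1000 counts, 4 genes were higher and 5 lower of 3692. The thinned reference still held 1231000 WT and 614000 knockout counts, more than the members. Members thinned to 1000 counts gave 40 higher and 70 lower, among a number of genes tested that is not given here. The number of calls thus varied with depth, and no comparison at equal summed counts was made. Round spermatid markers stood close, 1.04-fold (1.00 to 1.09) higher in knockout members, and 0 of 15 passed 1.5-fold in either direction, beside 3.68% of all genes tested higher and 5.40% lower.

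Of the 15 genes higher in knockout members, 12 were also 1.5-fold or more higher over the whole knockout library, and of the 23 lower genes 20 were 1.5-fold or more lower over the whole library. The share of all genes tested that passed 1.5-fold between the whole libraries is not given here. Whether these counts exceed that share was not tested. Lelp1, a proline-rich protein gene, had 97 counts in WT members and 210 in knockout members, or 157 and 384 CPM, a 2.45-fold (1.91 to 3.14) difference. Its reference levels were 112 and 162 CPM and its library levels 284 and 576 CPM, and 0-count barcodes were at 1004 and 2641 CPM. Spata32 was at 42.1 and 106 CPM in members and at 152 and 359 CPM in the libraries. Car2, carbonic anhydrase 2, was at 85.9 and 199 CPM in members and at 310.0 and 560.2 CPM in the libraries. Tmem64, Wasf2 (an actin nucleation regulator gene), Ttc23 and Zdhhc25 were 2.13-fold to 2.50-fold higher. Late spermatid markers moved the same way, 1.44-fold (1.40 to 1.49) higher in knockout members and 1.21-fold in the reference. Their library levels were 15769 and 28135 CPM. The top 3 members held 12.4% of the 7957 knockout counts of this list and 8.34% of the 6223 WT counts. By name suffix, WT members stood at 10064 CPM for N1 and 10114 CPM for N2 or more. Knockout members stood at 11418 and 18641 CPM. The interval of the fold does not cover such spread between barcodes. The part of these markers in the calls was not tested.

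The calmodulin gene Calm2 was among the genes that were lower. It had 159 counts in WT members and 48 in knockout members, or 258 and 87.8 CPM, 2.93-fold lower (2.11 to 4.14), beside 125 and 79.2 CPM in the reference and 653 and 159 CPM in the libraries. The glucose transporter gene Slc2a3 was at 188 and 64.0 CPM in members, 117 and 62.4 CPM in the reference, and 537 and 102 CPM in the libraries. Qk, an RNA-binding protein gene, was at 85.9 and 25.6 CPM, on 53 and 14 counts. The synaptonemal complex gene Sycp1 was at 183 and 80.5 CPM in members, beside early spermatocyte markers at 274 and 150.05 CPM. Cfdp1 was at 105 and 43.9 CPM. The ferritin gene Fth1, the thymosin gene Tmsb4x and the noncoding RNA Malat1 were 2.46-fold, 2.40-fold and 2.72-fold lower. Macrophage and stroma markers were lower in knockout members as well, at 23.8 against 82.6 CPM and 14.6 against 95.6 CPM, with most of their WT counts in 3 barcodes each. Their part in these values was not tested.

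A few genes differed between the members of the genotypes while their reference levels lay close together; they were picked out after their values had been seen. Adam6b, a gene of the ADAM family, had 25 and 54 counts (40.5 and 98.8 CPM) in members, and was at 44.2 and 42.2 CPM in the reference. Chmp5, of the ESCRT-III complex, was at 37.3 and 86.0 CPM in members and 44.6 and 43.6 CPM in the reference, and Mex3b, an RNA-binding protein gene, at 34.0 and 76.9 CPM in members and 31.5 and 33.5 CPM in the reference. Actr8, an actin-related protein gene of the INO80 complex, was at 89.1 and 32.9 CPM in members and 62.9 and 64.7 CPM in the reference. Over the whole libraries Actr8 was at 57.8 and 21.6 CPM and Mex3b at 23.1 and 41.5 CPM, both in the direction of the members. Adam6b was at 13.9 and 15.9 CPM over the libraries and Chmp5 at 35.8 and 42.2 CPM. The member values rest on 18 to 55 counts per gene and library. They were not stable in all settings: Chmp5 went to a log2 ratio of 0.000945 with a Prm and Tnp limit of 5%, and Actr8 to -0.56 with totals under 4000. Among the called genes outside this group, Tmem64 went to 0.22 with totals under 4000. Car2 went to 0.55 and Malat1 to 1.22 with a minimum of 1 six-gene count.

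**Figure D5:**
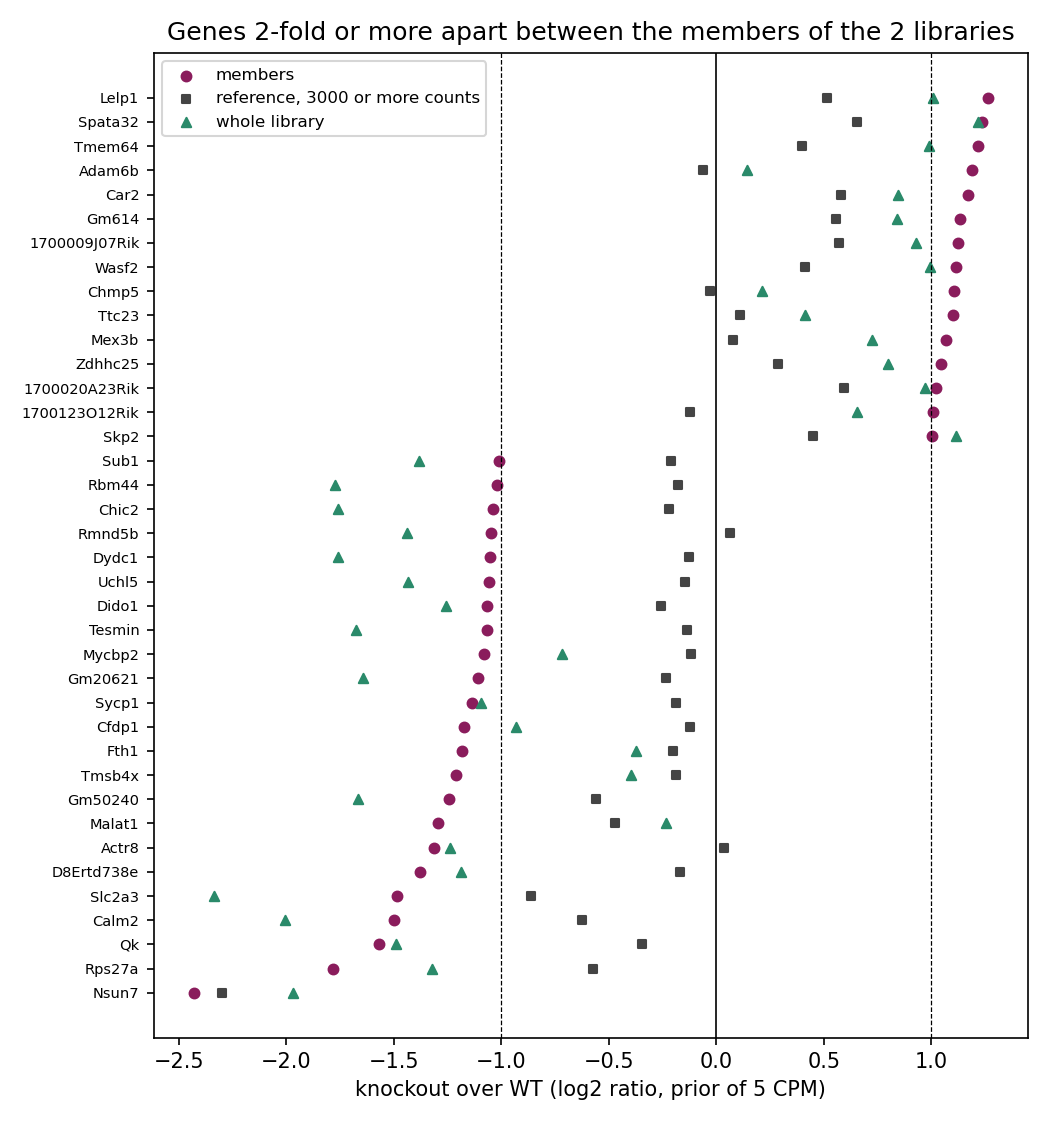
Log2 ratio of knockout over WT (x axis, 5 CPM added to both levels) for the 38 genes that were 2-fold or more apart between members (circles), with the same ratio in reference barcodes (squares) and over the whole libraries (triangles). Nsun7 alone is beyond 2-fold in the reference, and the whole-library values lie beyond 1.5-fold on the members' side for 32 of the 38 genes. The same share over all genes tested is not given here.

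List members that were 1.5-fold or more apart between the genotypes are given here by role. Over all genes tested the shares were 3.68% higher and 5.40% lower in knockout members. Of 32 measured acrosome genes 1 was 1.5-fold or more higher in knockout members, Fam71f2 (220.3 and 375 CPM), and 0 lower, with a list median of 0.06 (log2). Of 46 flagellum genes 1 was higher (Odf1) and 3 lower, Dnah8 being the lowest (204 and 121 CPM), with a median of -0.08 beside -0.03 over all genes tested. In the reference 0 of 46 flagellum genes and 0 of the acrosome genes passed 1.5-fold, beside 0.0813% of all genes tested higher and 0.0813% lower. Among 21 intraflagellar transport and manchette genes 0 were higher and 1 lower, Ift122 (144 and 76.9 CPM). Of 13 regulators of transcription 1 was higher (Jund) and 1 lower, Tbpl1, the TATA-binding protein-like factor needed for spermiogenesis (504 and 326 CPM in members, 611 and 536 CPM in the reference). Late spermatid markers had a median of 0.53 with 3 of 8 genes higher (Odf1, Oaz3 and Smcp) and 0 lower, and chromatin condensation genes a median of 0.33 with 0 of 11 past 1.5-fold. Late spermatocyte markers had 0 higher and 2 lower of 4 measured, a median of -0.47 and a summed level 0.757-fold (0.672 to 0.853) that of WT members. Of the early spermatocyte markers only Sycp1 was measured, and it was lower. The summed level of that list was 0.548-fold (0.416 to 0.718). Of 16 sperm glycolysis genes 1 was higher, Gpi1 (104 and 210.4 CPM), and 1 lower, Slc2a3. Among 20 nuclear respiratory chain genes 0 were higher and 2 lower, with a median of -0.24. Cytosolic ribosomal protein genes had 0 higher and 4 lower of 73, with a median of -0.21.

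RNA m5C genes were mostly too low to compare in members. Of 11 listed genes, 5 reached the mean of 50 CPM; 0 were 1.5-fold or more higher and 1, Nsun7, lower. The Y-box genes, whose proteins bind and store mRNA in germ cells, were the most abundant: Ybx1, whose protein also binds m5C, was at 2701 CPM in WT members and 2373 CPM in knockout members, and Ybx2 at 1387 and 1607 CPM. Nsun2, which encodes a tRNA and mRNA methyltransferase, was at 131 and 91.5 CPM on 81 and 50 counts, and Nsun4, which acts on mitochondrial ribosomal RNA, at 94.0 and 106 CPM on 58 counts in each library. Nsun6 had 21 and 15 counts, Nop2 12 and 10, Nsun3 2 in each, Nsun5 0 and 2, and Trdmt1 1 and 2. Alyref had 0 counts in members of either library.

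Members also varied among themselves with their six-gene count and their protamine share. The rule used both values, so these strata are a description only. Median totals of members with 2, 3, 4 and 5 or more six-gene counts were 1863, 1757, 1747.5 and 2137 in WT. They were 1655.5, 1622, 1677 and 2060 in the knockout library. Round spermatid markers were at 6105, 7539, 7589 and 8415 CPM in WT members with 2, 3, 4 and 5 or more six-gene counts, and at 6417, 7651, 8439 and 8992 CPM in knockout members. Late spermatocyte markers went from 1687 to 725 CPM and from 1174 to 723 CPM between the members with 2 and those with 5 or more counts. By Prm and Tnp share, late spermatid markers were at 8532, 11280.4 and 13750 CPM in WT members under 2%, from 2% to 5% and from 5% to 10%, and at 7489, 15396 and 19663 CPM in knockout members. Late spermatocyte markers went the other way, from 1366 to 436 CPM in WT and from 1235 to 328 CPM in the knockout library. The group from 5% to 10% held 14.5% of WT and 31.8% of knockout members. Gm42418 was at 2151 and 1978 CPM in members under 2%, at 3862 and 3643 CPM from 2% to 5%, and at 2519 and 3687 CPM from 5% to 10%.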

How the data were processed

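Poly(A) RNA was measured in 1 WT and 1 Nsun7 knockout testis library. The deposited files give counts as whole numbers for each gene in each barcode, taken here as molecules, and were made with PISA 0.12 per the file headers. The build is GRCm38 per the submitters' processing notes; aligner, annotation and barcode filter: not given in the sources used here. Matrices were joined by symbol (30052 symbols), and GENCODE M21 gave coordinates. Counts were summed per library and group and divided by the group's total to give CPM. Intervals are exact Poisson (levels), conditional binomial (folds) and Clopper-Pearson (shares). A gene was called at a 2-fold difference with a prior of 5 CPM if its mean level reached 50 CPM, and list members were counted at 1.5-fold. The 31 gene lists and the members were chosen with earlier results of these data known. Genes named were Nsun7, the rule genes, the m5C list, the 10 highest and 10 lowest ratios of each comparison without predicted, mitochondrial and ribosomal protein genes, and the extreme and most abundant list members. Depth bins, name suffixes, X and Y counts, the Leydig-rich limit of 2%, promoter motifs and the group of genes alike in the reference were added after the data had been seen. Doublets were called with Scrublet in scanpy 1.11.5 on barcodes with up to 20% mitochondrial counts, a limit set after the call on all barcodes had failed, and were kept. Python 3.11.15, numpy 2.4.6, scipy 1.17.1 and pandas 2.3.3 were used. The calculation was tested on simulated data.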

Additional observations from a re-analysis of the deposited data

How the results depend on the processing

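No paired analysis was possible because each genotype has 1 library and the replicate number came only from accession order. The knockout-over-WT ratio of Nsun7 kept its direction in all settings (log2 -2.80 to -2.13). The share of members is set by the limits. With a six-gene minimum of 1 it was 3.27% in WT and 2.75% in the knockout library (difference -0.52 points), with 3 it was 1.41% and 1.18%, with totals under 2000 it was 1.04% and 1.06% (difference 0.013 points), with totals under 4000 it was 2.72% and 2.23% (difference -0.48 points), with a Prm and Tnp limit of 5% it was 1.66% and 1.20%, and without 1 of the 6 genes it was as low as 1.54% and 1.28%. With a mitochondrial limit of 5% it was 2.20% in WT. As a share of members plus reference these settings gave 30.3% and 43.0%, 15.8% and 24.4%, 11.04% and 19.6%, and 28.2% and 40.8% in the order of the first 4, and 29.1% in the knockout library with the Prm and Tnp limit of 5%.

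Counts of genes higher and lower in knockout members were 2 and 35 with a minimum of 1, 44 lower with 3, 74 and 145 with totals under 2000, 5 higher with totals under 4000, 42 lower with the mitochondrial limit of 5%, 27 higher with TMM scaling, 41 and 137 at a mean of 20 CPM, 1 and 0 at 200 CPM, 3 and 9 with a prior of 20 CPM, 40 and 70 in members thinned to 1000 counts, and up to 50 lower without 1 of the 6 genes. Genes higher than the reference in both libraries numbered 32 with a minimum of 1, 5 with totals under 2000, 12 with the mitochondrial limit of 5%, 5 with the Prm and Tnp limit of 5%, 6 at 20 CPM, 1 at 200 CPM, 1 with free RNA subtracted (Jak3 was then at 0 in both knockout groups), 1 with the thinned and reselected set and 36 with the stricter reference. Genes lower numbered 3 with a minimum of 1, 5 with 3, 4 with totals under 2000, 1 with TMM scaling, 1 at 20 CPM, 4 with the stricter reference and up to 1 without 1 of the 6 genes. The number of genes tested can change with the setting and is not given here. The counts in this paragraph are therefore not shares and cannot be compared as shares with those of the main setting.

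On the log2 scale, round spermatid markers in knockout over WT members were at 0.13 with totals under 4000 and 0.17 with TMM scaling, which shifts all genes by 0.11. The flagellum median was -0.13 with a minimum of 3, -0.16 under 2000, -0.11 under 4000, -0.046 with the Prm and Tnp limit of 5%, -0.047 at 200 CPM, -0.15 without 1 of the 6 genes, and turned to 0.0068 with TMM scaling. Late spermatid markers over the reference, 0.36 and 0.62 as reported, were at 1.08 and 1.10 with a minimum of 1, 0.48 (knockout) with 3, 0.51 and 0.81 under 2000, 0.30 and 0.51 under 4000, 0.31 (WT) with the mitochondrial limit, 0.45 (WT) with the Prm and Tnp limit, 0.26 (WT) with TMM scaling, and 0.22 and 0.49 without 1 of the 6 genes. The cause of these changes was not tested. Malat1 turned to 1.22 with a minimum of 1. With the stricter reference Prss46 turned to 0.46 and 0.78, Smco4 to 0.86 and 1.03, Rad21 to -0.33 and -0.51 and Fam71a to -0.23 and -0.30, and 4 other named genes also changed sign in at least 1 library.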
